A study of Homo sapiens with 4 samples.

Results

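The 8 genes described here, STAT3, STAT5A, STAT5B, SOCS1, SOCS2, SOCS3, CISH and PIM1, are STAT genes and known STAT5 target genes downstream of FLT3-ITD. They were listed by name, with earlier results of these data known although the rule itself uses no measured value, out of 20037 protein-coding genes annotated on GRCh38.p14, the build of the peak lists (hg38). H3K27Ac, an acetyl mark of histone H3 at active enhancers and promoters, was profiled by ChIPmentation, a ChIP-seq protocol that uses the transposase Tn5 to tag immunoprecipitated chromatin with adapters. The cells were MOLM13, 1 human AML cell line that carries MLL1-r and FLT3-ITD, so the values describe this line alone. The control library is labelled as untreated, although the protocol speaks of DMSO. The other library came from cells kept for 16 h in SNDX-50469, a Menin inhibitor, at 500 nM. Each condition has 1 library, so no difference has a replicate check and no p-value is given.

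FLT3-ITD is a receptor tyrosine kinase that signals without ligand, and phosphorylated STAT5 is one of its main outputs. STAT proteins are latent transcription factors that are phosphorylated in the cytoplasm, pair, and bind DNA at sites of the form TTCNNNGAA. Among the best known genes they induce are those of the SOCS family, including CISH, whose proteins bind the receptor complex and dampen the signal, and PIM1, a serine/threonine kinase that promotes survival of myeloid cells. H3K27Ac at these genes is thus a readout of their regulatory chromatin, not of STAT5 activity or mRNA.

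The control list held 245875 peaks and the SNDX-50469 list 54061, and they covered 224 and 29.4 Mb. The smallest −log10 p in the lists was 2.68 and 3.93, so the SNDX-50469 list ends at a higher level. The lists hold no read totals, so depth is unknown, and a position outside a SNDX-50469 peak is not shown to lack H3K27Ac. A loss of the mark in a share of the cells and a weaker mark in all of them cannot be told apart. Of 9 markers of myeloid leukaemia, including SPI1, CEBPA, MPO and FLT3, all 9 had a control peak within 5 kb of the 5′ end, as had 67.3% of protein-coding genes. Of 5 markers of other cell types, 2 had one, namely CD3E and GATA1. EPCAM and ALB had no control peak over the gene and its flanks. PAX5 had 253 bp covered there in control and 473 bp following treatment. CD3E had 9490 bp covered there in control, more than the 8297 bp of the myeloid marker HOXA9.

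All 8 genes had H3K27Ac peaks in control MOLM13 cells, and at all 8 the covered length was lower following SNDX-50469 treatment. The same direction was found at 98.1% of all 15634 such genes of the annotation (protein-coding, at least 1 control peak), so the direction alone does not set these genes apart. The 8 genes differed among themselves. Over SOCS1, SOCS2 and SOCS3 the SNDX-50469 list had no peak at all, and the STAT genes had a few short ones. CISH was still covered over most of its length, and PIM1 lay between.

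Covered length was counted from 5 kb before to 5 kb beyond each gene. The kept share states how much of the control covered length, in percent, was also covered following treatment. Over the 8 genes together, with shared positions counted once, the 124 peaks of control covered 134028 bp and the 14 of SNDX-50469 covered 12571 bp. The kept share was 9.06%, beside 9.71% for the whole control list. By number, 7 of the 124 control peaks shared at least 1 bp with a SNDX-50469 peak, which is 5.65% (Wilson 95% interval 2.76 to 11.2, for counting error only). In the whole control list 8.24% of peaks did, a value inside that interval. CISH alone gave 67.2% of the kept length of the 8 genes, and without CISH their kept share was 3.32%. Per gene, the median kept share was 0.819%, beside 2.37% for all protein-coding genes with a control peak. The latter have less control covered length, with a median of 5834 bp against 13442 bp at the 8 genes. In the groups of like control covered length described below, the median kept share was 6.70 to 9.17%.

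A SNDX-50469 peak was found at 5 of the 8 genes, against 64.4% of all genes with a control peak. None of the control covered length was kept at 4 of the 8 genes (STAT5A, SOCS1, SOCS2 and SOCS3). Among all protein-coding genes with a control peak this share was 44.8%, but many of those genes had little covered length to begin with. When genes were divided into 10 groups by control covered length, STAT5A, SOCS1 and SOCS3 fell in the 7th group, in which 24.8% of genes kept none. SOCS2 fell in the 10th group, with the longest covered length, in which 7.74% of genes kept none. CISH and PIM1 fell in the 8th group, whose median kept share was 9.17% with quartiles of 1.61 and 21.3%. The CISH value lay above that upper quartile and the PIM1 value between the quartiles.

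**Figure D1:**
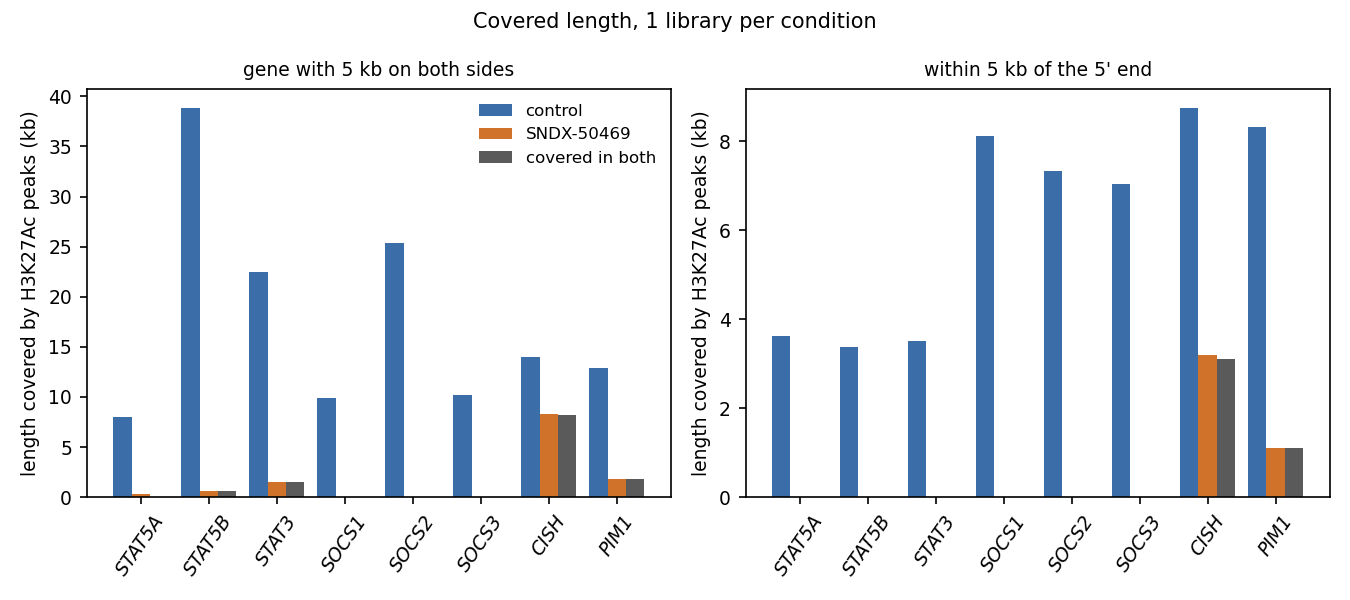
Length covered by H3K27Ac peaks in kb for control (blue), SNDX-50469 (orange) and both lists (grey), for each gene with 5 kb on both sides (left) and within 5 kb of its outermost 5′ end (right), 1 library per condition. SOCS1, SOCS2 and SOCS3 have no bar for SNDX-50469, and CISH has the tallest, 8250 bp in the left panel.

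STAT5B, STAT5A and STAT3 encode the transcription factors themselves and lie side by side on chromosome 17, so that their flanked windows join in a single stretch of 199266 bp. In this stretch control had 85 peaks over 61725 bp, and SNDX-50469 had 5 peaks over 2521 bp. The kept share was 3.54%. Most of the STAT control peaks were short and weak, with median widths of 356 bp at STAT3, 426 bp at STAT5A and 376 bp at STAT5B.

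STAT3 (chromosome 17 from 42313324 to 42388442, minus strand) had 22473 bp covered in control and 1549 bp following treatment, all of it inside control peaks, and 6.89% was kept. Its strongest control peak, 42386481 to 42388470, lies over the 5′ end with a fold over background of 5.99 and ranked 4146 in the control list. No SNDX-50469 peak overlapped it, and the nearest one to the 5′ end lay 45.6 kb away. What remained at STAT3 was inside the gene. The SNDX-50469 peaks 42341248 to 42342042 and 42342466 to 42342822 lay within a single control peak from 42340484 to 42343352, of which 40.2% was kept. The other, 42319961 to 42320357, lay within a control peak of 5611 bp nearer the 3′ end, of which 7.08% was kept.

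STAT5A (chromosome 17 from 42287439 to 42311943, plus strand) had the lowest control fold values of the 8 genes at their strongest peaks, with 14 peaks between 2.66 and 3.90. They covered 8022 bp, and none of this was kept. The 1 SNDX-50469 peak at the gene, 42301649 to 42301985, lay 14210 bp downstream of the 5′ end, where the control list has no peak. It was weak, with a fold of 3.55 and a −log10 q of 1.51. It was also the only one of the 14 SNDX-50469 peaks at the 8 genes that shared no position with control. In the stretch of the 3 STAT genes it was 1 of 5, and 16.7% of the SNDX-50469 peaks on chromosome 17 shared none.

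STAT5B, the close paralogue of STAT5A (chromosome 17 from 42199177 to 42288370, minus strand), had the longest control covered length of the 8 genes, 38789 bp in 49 peaks, against 635 bp in 1 SNDX-50469 peak, and 1.64% was kept. Its strongest control peak, 42232540 to 42238437, lies inside the gene with a fold of 5.56 and was not overlapped. The SNDX-50469 peak, 42276627 to 42277261, lies within the control peak from 42275388 to 42277520, which spans the start site of STAT5B in the promoter table (42276391). The outermost annotated 5′ end of STAT5B is farther upstream and overlaps the first 932 bp of STAT5A. Within 5 kb of that outermost end none of 3381 bp was kept, and within 5 kb of the promoter table start 21.5% of 2951 bp was kept. Of the 3 STAT genes, STAT5B was thus the one with a SNDX-50469 peak within 5 kb of an annotated start.

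**Figure D2:**
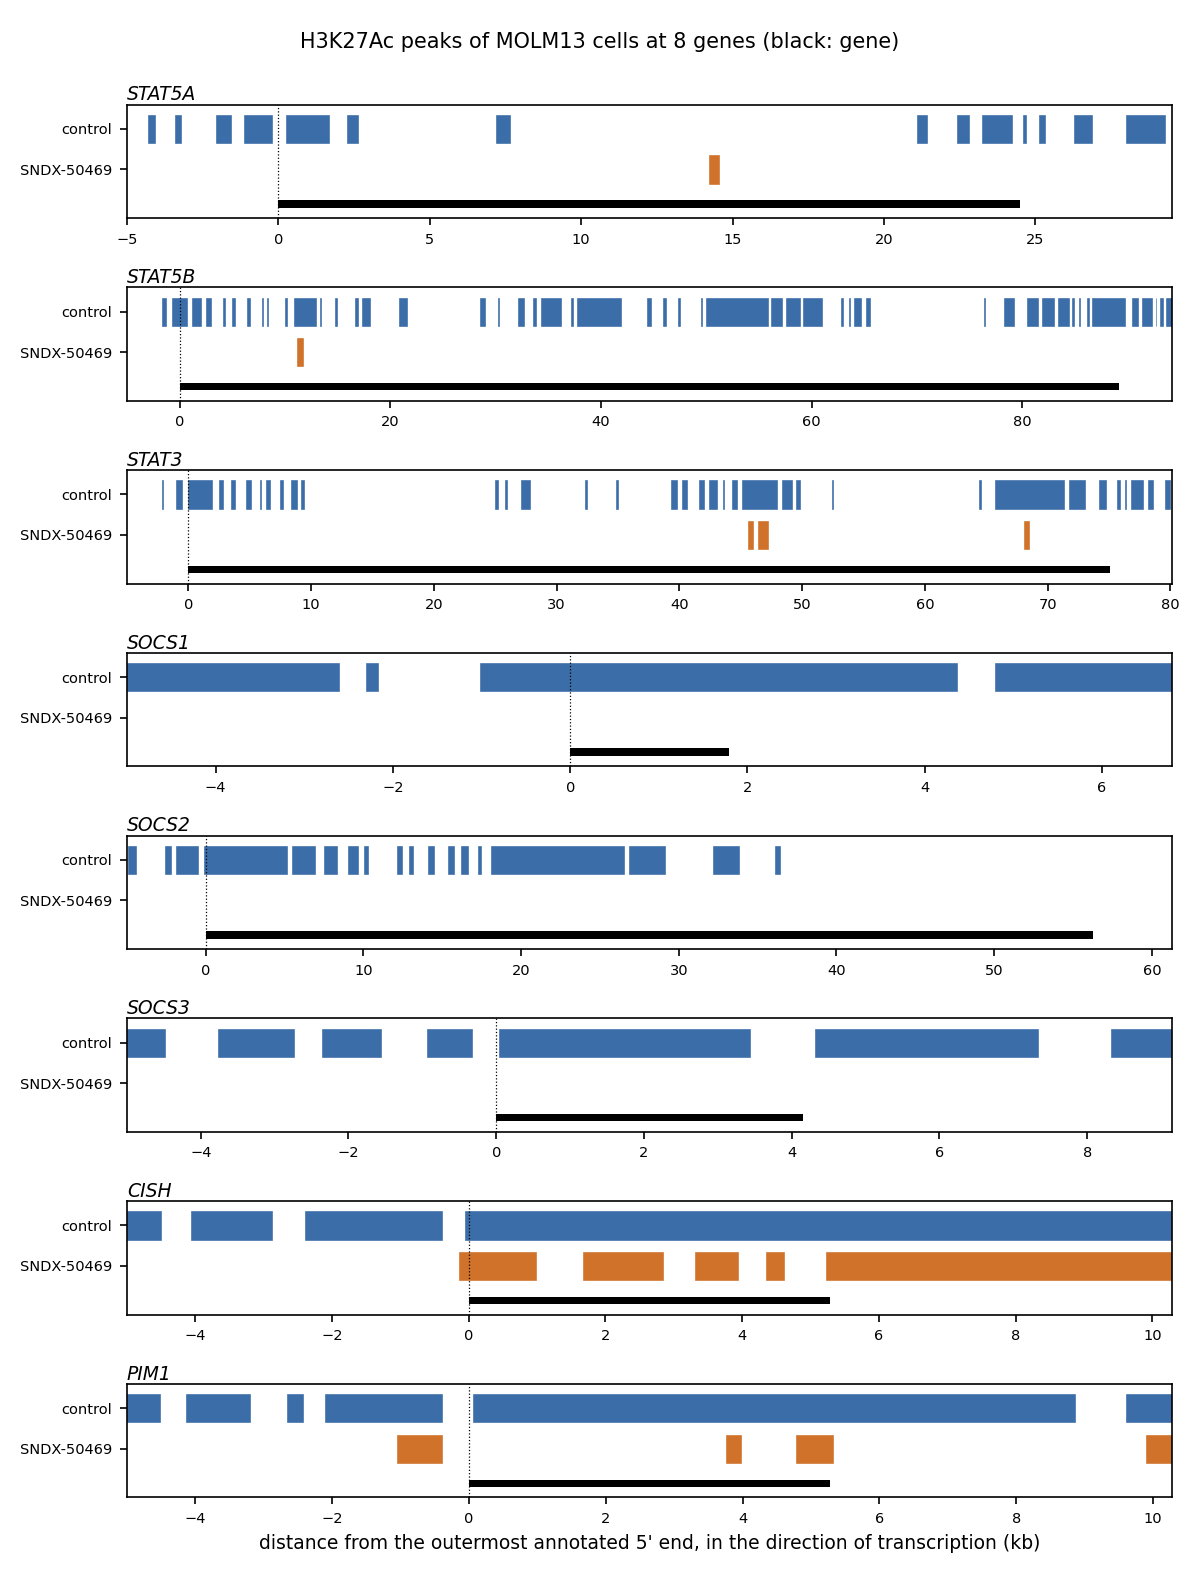
H3K27Ac peaks of control (blue) and SNDX-50469 (orange) over each gene (black bar) and 5 kb on both sides, with the distance from the outermost annotated 5′ end in kb along the direction of transcription, on a scale of its own for each gene. SOCS1, SOCS2 and SOCS3 have no SNDX-50469 peak, CISH has 5 and PIM1 has 4.

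SOCS1, SOCS2 and SOCS3 are feedback inhibitors of cytokine and receptor kinase signalling. Together their windows held 29 control peaks covering 45418 bp, and the SNDX-50469 list held none there (0 of 29 control peaks overlapped, Wilson 95% interval 0 to 11.7%). In the whole control list 8.24% of peaks were overlapped, a value inside that interval. Of these 29 control peaks, 10 had a −log10 p at or above 3.93, where the SNDX-50469 list ends. Over the whole control list 28.4% of the peaks at that level were overlapped, and over the 8 genes 7 of 41 were, which is 17.1% (8.53 to 31.3%). Of the 83 weaker control peaks at the 8 genes none was overlapped, against 3.66% overlapped in the whole list.

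SOCS2 (chromosome 12 from 93569969 to 93626236, plus strand) inhibits growth hormone and other STAT5-linked signalling. It had 25332 bp covered in control by 18 peaks and 0 bp following treatment. Its strongest control peak, 93569834 to 93575120, spans the 5′ end and the first part of the gene, with a width of 5287 bp, a fold of 10.35 and a −log10 q of 17.53. It ranked 244 of 245875 control peaks by −log10 p. Among the 225618 control peaks that no SNDX-50469 peak overlapped, it ranked 4. At a −log10 q of 10 or more the control list had 1922 peaks, of which 77 (4.01%) were not overlapped, this peak among them.

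A wide intragenic control peak of SOCS2, 93588033 to 93596498, with 8466 bp and a fold of 4.65, was not overlapped either. With 25 kb on both sides of SOCS2 there was still no SNDX-50469 peak, and the nearest one lay 50839 bp from the gene and 67.2 kb from its 5′ end. SOCS2-AS1, a lncRNA that overlaps the 5′ part of SOCS2 over 1430 bp, lies under the peak at the 5′ end but not under the intragenic one, and the lists cannot tell which transcript the former belongs to. The kept share of chromosome 12 as a whole was 7.81%.

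SOCS1 (chromosome 16 from 11254417 to 11256204, minus strand), which binds JAK kinases directly, is a short gene inside the lncRNA LOC105371082. In control, 4 peaks covered 9895 bp, or 83.9% of its window, and all 2001 positions within 1 kb of the 5′ end. The central peak, 11251842 to 11257216, had a fold of 4.77, well under that of the SOCS2 peak. The nearest SNDX-50469 peak lay 19285 bp from the gene. With 25 kb on both sides, 4 SNDX-50469 peaks covered 2643 bp, and 5.99% of 44110 bp was kept.

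SOCS3 (chromosome 17 from 78356778 to 78360925, minus strand), an inhibitor of signalling through gp130 and the G-CSF receptor, showed the same arrangement. In control, 7 peaks covered 10191 bp, or 72.0% of its window, the strongest from 78357487 to 78360885 with a fold of 4.30. The nearest SNDX-50469 peak lay 20717 bp from the gene. With 25 kb on both sides, 3 SNDX-50469 peaks covered 1103 bp, and 2.66% of 41447 bp was kept. SOCS3-DT, a lncRNA, begins within the gene and runs across its 5′ flank.

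CISH (chromosome 3 from 50606489 to 50611774, minus strand) encodes the SOCS family member CIS, which docks on phosphorylated receptors and is a classical STAT5 target. Its H3K27Ac was the strongest of the 8 genes in control. A control peak of 13943 bp, 50597882 to 50611824, runs from its 5′ end across the whole gene and on downstream, with a fold of 11.44 and a rank of 119 in the control list. Following treatment 83.8% of this peak was covered. The SNDX-50469 list had 5 peaks there, the widest being 50597962 to 50606549, with 8588 bp, a fold of 5.67 and a rank of 883 of 54061. This widest peak lay almost wholly downstream of the gene. The others were weaker, with folds of 3.46 to 4.32 and −log10 q of 1.39 to 2.68. Over the gene without flanks 58.8% of 5286 bp was kept. Over the gene with its flanks 14022 bp were covered in control and 8250 bp following treatment, with a kept share of 58.2%, beside 7.55% for chromosome 3 as a whole.

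The sides of the CISH 5′ end differed. Just upstream, the control peak 50612167 to 50614170 had a fold of 9.98 and ranked 306, yet no SNDX-50469 peak overlapped it, and it ranked 6 among the 225618 control peaks without overlap. The 8 genes had 4 control peaks whose −log10 q reached 10, and it and the SOCS2 peak were the 2 without overlap. At a −log10 q of 5 or more the 8 genes had 11 control peaks, of which 6 were overlapped, while 22.1% of the peaks of this strength in the whole list were not. All 3 control peaks upstream of CISH in its 5 kb flank were absent from the SNDX-50469 list. Farther upstream the SNDX-50469 list had peaks again, up to 50622216 when peaks were joined as described below. MAPKAPK3 overlaps the first 255 bp of CISH and extends over the upstream peaks, so these peaks cannot be assigned to CISH rather than to MAPKAPK3.

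PIM1 (chromosome 6 from 37170152 to 37175428, plus strand) had 12863 bp covered in control, 84.2% of its window, and 1800 bp following treatment. All of this lay inside control peaks, and 14.0% was kept. The widest control peaks were also the strongest of the 6 at PIM1. One of 8806 bp, 37170213 to 37179018, runs over nearly the whole gene with a fold of 7.16 and a rank of 2131, and another of 6307 bp, 37179751 to 37186057, begins downstream with a fold of 10.60 and a rank of 201. Of their lengths 8.61% and 16.3% were kept. The control peak upstream of the start, 37168053 to 37169765, kept 38.9%, in a SNDX-50469 peak from 37169099 to 37169765 with a fold of 4.64. In both lists this upstream peak ended at the same position, 387 bp before the 5′ end. On chromosome 6, 49.2% of SNDX-50469 peaks shared no position with control, and none of the 4 at PIM1 was of this kind. Control peaks covered 84.2% of the PIM1 window, which left little room for a SNDX-50469 peak outside them. The absence of such peaks at PIM1 thus cannot be read as a difference from the chromosome.

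**Figure D3:**
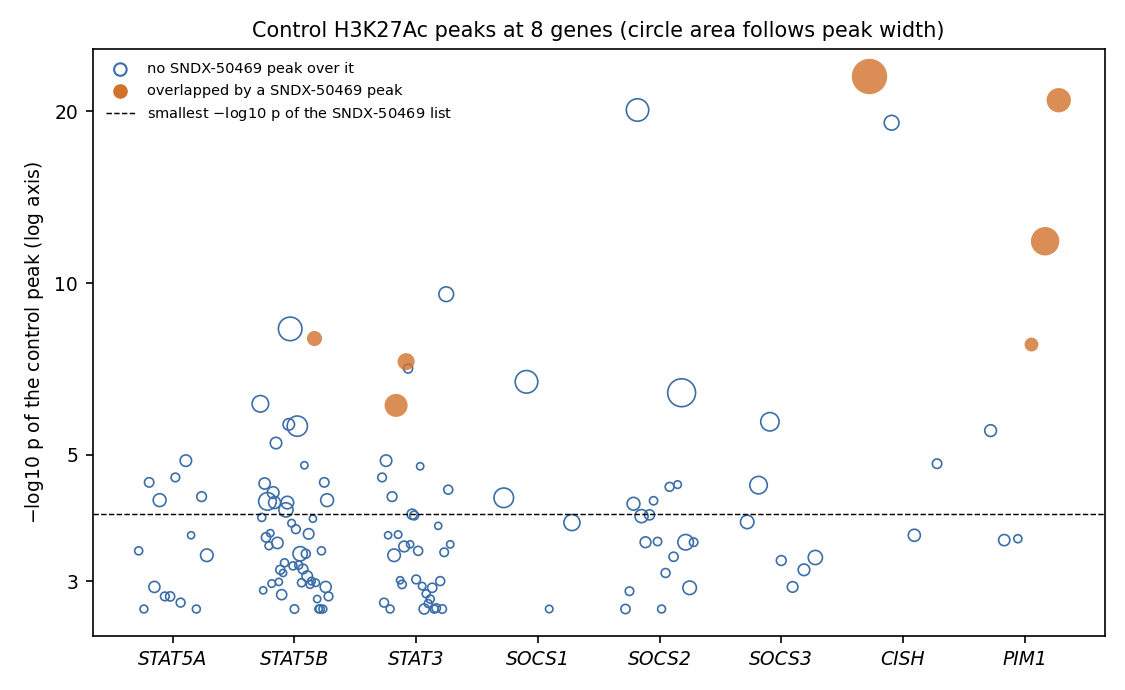
−log10 p (log axis) of each control peak at the 8 genes with 5 kb flanks; filled orange circles were overlapped by a SNDX-50469 peak, open blue ones were not, circle area follows the peak's width, and the dashed line marks 3.93, the level at which the SNDX-50469 list ends. Peaks in the shared stretch of the STAT genes can appear under more than 1 gene. At SOCS2 the strongest peak, at 20.12, is open, while the strongest peaks of CISH and PIM1, at 23.09 and 20.93, are filled.

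Within 5 kb of the outermost 5′ end, a window of the same length for every gene, all 8 genes had a control peak, as had 67.3% of protein-coding genes. There control peaks covered between 3381 bp (STAT5B) and 8737 bp (CISH). The 3 STAT genes had 3381 to 3620 bp, and the SOCS genes, CISH and PIM1 had 7029 to 8737 bp. Following treatment, peaks covered 3189 bp at CISH and 1103 bp at PIM1 and nothing at the other 6 genes. Covered length was lower at 8 of 8 genes, against 98.9% of genes with a control peak in this window. None of the control covered length was thus kept at 6 of the 8 genes, against 49.2% of 13249 genes that had a control peak there. The windows of STAT5A and STAT5B overlap over most of their length, so these genes are not separate observations. The count also depends on the start used, since STAT5B kept 21.5% around its promoter table start. In groups of like control covered length, 38.2% of genes kept none in the group of the STAT genes, 17.8% in that of SOCS2 and SOCS3, and 10.6% in that of SOCS1, CISH and PIM1. The kept share was 35.4% at CISH and 13.3% at PIM1, beside a median of 26.3% in their group. Within 1 kb of the 5′ end it was 62.3% at CISH and 39.5% at PIM1. At both genes the kept share was thus higher within 1 kb of the 5′ end than within 5 kb of it. At PIM1 the part kept within 1 kb lay upstream, in the SNDX-50469 peak that ended 387 bp before the 5′ end. At CISH the gene without flanks kept 58.8%, close to the value within 1 kb.

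Peaks within 12.5 kb of each other were also joined, to see how much of the surrounding acetylated domain remained. In control, SOCS1 lay in a joined region of 638 kb that ranked 36 of 24668 by the sum of fold times width. PIM1 lay in one of 377 kb ranked 98, SOCS3 in one of 345 kb ranked 185, and CISH in one of 128 kb ranked 387. These regions hold many other genes. Following treatment CISH lay in a joined region of 35.0 kb made of 13 peaks, which ranked 144 of 18541, and PIM1 in one of 28.1 kb ranked 2441. SOCS1, SOCS2 and SOCS3 lay in none. Ranks of the 2 lists are not on one scale.

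RefSeq promoter sequences (GRCh38.p14, 250 bases before to 50 bases after the start site) were available for 7 of the 8 genes, and SOCS2 had no entry. They were searched for TTCNNNGAA, which reads the same on both strands, with overlapping matches allowed. The motif was found in the promoter of CISH and in none of the other 6 genes. CISH had 4 separate sites, where 7.66% of 34943 promoters have at least 1 and 7 of them (0.0200%) have at least 4. The promoters of CISH, SOCS1 and PIM1 are shown because they differ in coverage. The CISH promoter was partly covered in both lists, the SOCS1 promoter was covered throughout in control and not following treatment, and the PIM1 promoter lay in a gap between control peaks. Capitals mark TTCNNNGAA sites, and each sequence runs 5′ to 3′ on the strand of its gene, CISH at chr3:50611725-50612024 (minus), SOCS1 at chr16:11256155-11256454 (minus) and PIM1 at chr6:37169902-37170201 (plus).
CISH: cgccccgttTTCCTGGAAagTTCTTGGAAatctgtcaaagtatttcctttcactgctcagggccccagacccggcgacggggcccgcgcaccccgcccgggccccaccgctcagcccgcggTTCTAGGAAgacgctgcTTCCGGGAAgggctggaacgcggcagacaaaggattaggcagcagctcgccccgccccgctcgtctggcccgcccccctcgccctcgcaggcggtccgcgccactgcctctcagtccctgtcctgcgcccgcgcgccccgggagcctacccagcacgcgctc
SOCS1: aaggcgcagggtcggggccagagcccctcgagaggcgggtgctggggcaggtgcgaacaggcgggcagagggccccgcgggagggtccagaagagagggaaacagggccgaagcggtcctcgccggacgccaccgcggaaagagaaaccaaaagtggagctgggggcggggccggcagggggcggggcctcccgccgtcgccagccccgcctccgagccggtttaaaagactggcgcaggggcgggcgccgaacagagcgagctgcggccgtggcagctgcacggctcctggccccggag
PIM1: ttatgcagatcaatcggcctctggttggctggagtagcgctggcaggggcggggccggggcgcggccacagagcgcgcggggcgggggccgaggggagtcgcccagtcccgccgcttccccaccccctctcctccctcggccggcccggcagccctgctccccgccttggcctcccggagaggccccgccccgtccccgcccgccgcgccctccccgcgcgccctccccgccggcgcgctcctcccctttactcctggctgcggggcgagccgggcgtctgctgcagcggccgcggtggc

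All 4 CISH sites lay in a gap of 342 bp, 50611825 to 50612166, between the strong control peaks on either side of the start. The sites TTCTAGGAA, at −129 to −121 from the start site, and TTCCGGGAA, at −112 to −104, were inside a SNDX-50469 peak, which reached 93 bp into this gap, and outside every control peak. The sites TTCCTGGAA, at −241 to −233, and TTCTTGGAA, at −230 to −222, lay outside the peaks of both lists. The start site of CISH itself lay inside the control peak. Start sites in gaps between control peaks were found at PIM1, where the gap was 447 bp wide and held the whole promoter sequence, and at SOCS3 and STAT5A, with gaps of 373 and 471 bp. SOCS3 and STAT5A each also had another start site whose promoter lay wholly inside a control peak. Of 22049 promoters of protein-coding genes, 36.4% lay wholly inside a control peak and 50.8% wholly outside. A match is a run of letters and not a measured binding site.

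**Figure D4:**
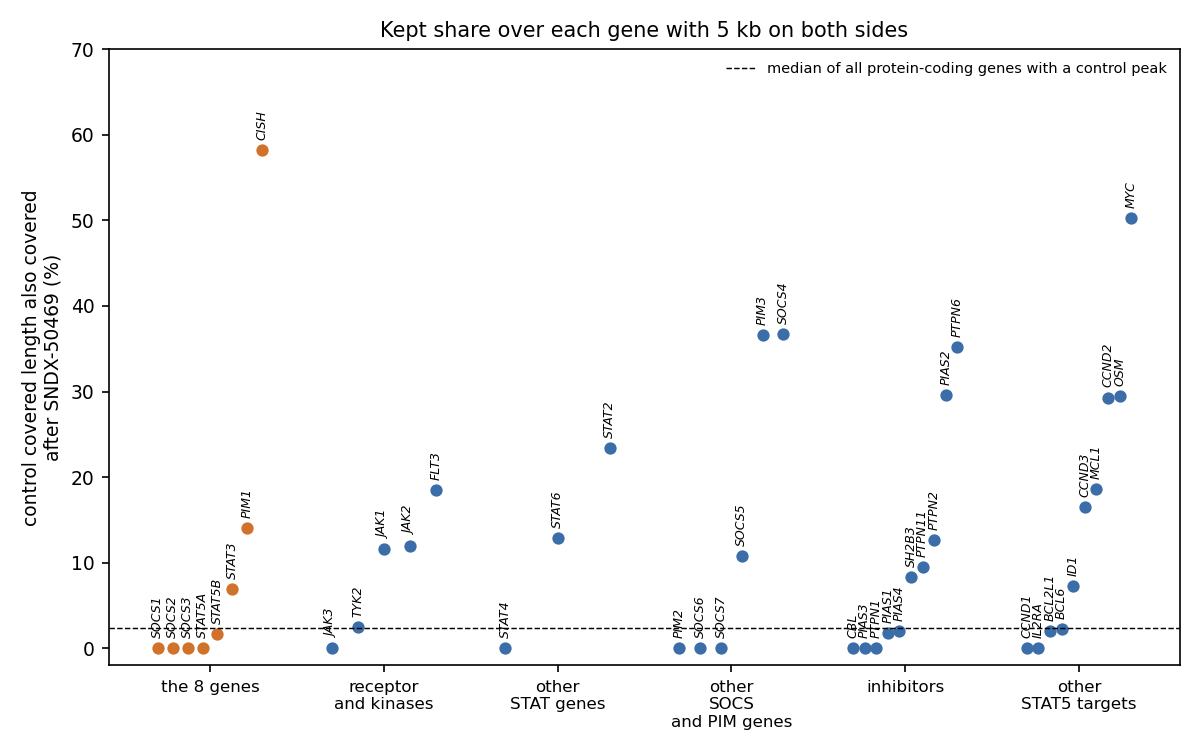
Kept share in percent over each gene with 5 kb on both sides, for the 8 genes (orange) and other genes of the pathway (blue) with a control peak; the dashed line is the median of all protein-coding genes with a control peak, 2.37%. That median includes many genes with little control covered length. CISH (58.2%) is the highest point of the plot, MYC (50.3%) is next, and genes at 0 are found in every group.

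Other genes of the pathway were examined as 5 lists. The covered length was lower following treatment at every gene of these lists, as at 98.1% of all genes with a control peak. In the 7th to 10th groups by control covered length, the median kept share of all genes was 6.70 to 9.17%. In the 2nd, 3rd and 4th groups, with 574 to 4184 bp in control, 87.8%, 68.2% and 51.0% of genes kept none. FLT3 and the JAK kinases, which lie upstream of the STATs, had a median kept share of 11.6% over 5 genes. It ranged from 0% at JAK3, which had only 1195 bp in control, to 18.5% at FLT3. At FLT3, 79074 bp were covered in control and 15128 bp following treatment. STAT2, STAT4 and STAT6, which serve other cytokine receptors, had a median of 12.9%, with 23.4% at STAT2 and 0% at STAT4, which had only 2397 bp in control. The other SOCS and PIM genes ranged from 0% at PIM2, SOCS6 and SOCS7 to 36.7% at SOCS4, with a median of 5.38%. PIM2, SOCS6 and SOCS7 had only 2978, 883 and 4135 bp in control. PIM3, a paralogue of PIM1 with a near equal control covered length of 12968 bp, kept 36.6%.

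Inhibitors of the pathway outside the SOCS family, which are PIAS proteins, phosphatases and adaptors, had a median kept share of 5.14% over 10 genes. PTPN6, which encodes the phosphatase SHP-1, was the highest with 35.2%, and CBL, PIAS3 and PTPN1 kept none. PIAS3 had only 1669 bp covered in control. CBL, a ubiquitin ligase that turns over activated receptors, had 28951 bp covered in control and no SNDX-50469 peak. Of 10 other genes known as STAT5 targets, 8 had a SNDX-50469 peak, against 64.4% of all genes with a control peak. The 10 had a longer median control covered length, 12046 bp against 5834 bp for all such genes. Of the 10, 2 kept none, and in the 8th group, which includes that median length, 20.6% of genes kept none. The median kept share of the 10 was 11.9%. MYC kept 50.3%, OSM 29.5% and CCND2 29.3%. IL2RA, a classical STAT5 target, kept none of 12539 bp, and CCND1 kept none of 1743 bp. STAT5 target genes were thus found at both ends of the range.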

How the data were processed

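H3K27Ac ChIPmentation libraries of MOLM13 cells, 1 per condition, were analysed from 1 broad peak list each; the 2 input libraries were not analysed here. The submitters' processing notes name Trim Galore 0.6.5, Bowtie2 2.3.4.2, Picard 2.9.0, MACS2 2.1.2 and GRCh38, without their roles, while the supplementary methods name TopHat2 and hg38. Whether an input library entered the calling is not stated. For each peak the authors deposited a score, which is 10 times the −log10 q without decimals and was not used. They also deposited a ratio (its fold over background, whose source is thus unknown), a −log10 p and a −log10 q. These values are not scaled between libraries, so positions rather than fold values were compared between lists.

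Python 3.11.15 with numpy 2.4.6 and pandas 2.3.3 was used, and the interval functions were tested on simulated data. Genes are RefSeq GRCh38.p14. Strands came from the RefSeq promoter table or, where it had no entry, by symbol from GENCODE (GRCh37, strand only); 19675 genes had a strand. An overlap of 1 bp with any SNDX-50469 peak was enough for a control peak to count as kept. The 8 genes, the lists of other pathway genes and the markers were chosen with earlier results of these data known. All 8 genes are named; of each other list the highest and lowest kept shares were to be named, and further genes were picked after their values were seen. Some genes of these lists are not reported here. Alternatives covered window sizes, thresholds of −log10 q of 2 and 5, a common −log10 p, a control list trimmed to equal length, joined peaks and the overlap.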

Additional observations from a re-analysis of the deposited data

How the results depend on the processing

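At SOCS1, SOCS2 and SOCS3 the kept share over the gene with its flanks stayed at 0 with no flank, with −log10 q of at least 2 and with 1 smallest −log10 p for both lists, while 25 kb on both sides gave 5.99% at SOCS1 and 2.66% at SOCS3. With only peaks of −log10 q of at least 5 in both lists, 5 of the 8 genes had a control peak and all 5 had less covered length following treatment. The kept share near the 5′ ends was then 0%, that of STAT3, STAT5B and PIM1 was 0%, and that of CISH was 41.0%. At CISH this came from 1 SNDX-50469 peak, 50597962 to 50606549, which lay almost wholly downstream of the gene. With −log10 q of at least 2, PIM1 kept 5.71% and STAT3 2.74%, with 25 kb on both sides PIM1 kept 7.20% and STAT5A 5.53%, and with 1 smallest −log10 p STAT3 kept 11.6%. With the control list trimmed to the covered length of the SNDX-50469 list, 3 genes (SOCS2, CISH and PIM1) had control peaks left, all 3 had less covered length following treatment, 34.3% of the length of the 8 genes and 60.0% of their 5 remaining control peaks were kept, and SOCS2 still kept none. With the −log10 p at which the SNDX-50469 list ends applied to both lists 17.1% of control peaks were kept, and 0.806% when 50% of a control peak had to be covered. Leaving out CISH gave a kept share of 3.32% of the summed length. In 23 other combinations of summed value and setting, the value stayed within 1.5 times the count of genes or within the wide counting interval of the control peaks, which was also used for lengths. Of these, 20.6% near the 5′ ends with the trimmed control list, 13.6% within 1 kb of them, and 9.62% and 9.09% of control peaks with −log10 q of at least 2 and 5 were over 1.5 times the reported value. The alternatives without CISH and with the starts of the promoter table were chosen after seeing the data. No paired analysis was possible because there is 1 library a condition. Read depth is unknown, and weak signal below the SNDX-50469 threshold cannot be told apart from none.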
